A study of Mus musculus with 4 samples.

Results

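Transcripts of 3 genes grouped here under the theca, the androgen-making layer of the ovarian follicle, were followed across mouse ovary sections: Cyp17a1, Insl3 and Srd5a1. They were chosen by symbol from 32285 genes, not by a rule on their values but with earlier results of these data known. All 3 had counts and passed the filter on low counts. The animals were outbred CD-1 female mice, 4 young ones aged 3 to 4 months and 4 aged ones of 15 to 16 months, and 1 ovary section came from each. The labels give no allele or drug, and age is the difference between the groups. RNA was caught on barcoded Visium spots, and each of 4 capture areas held 1 young and 1 aged section, numbered here by area. Each spot takes up RNA from several cells. Fewer cells of a type and less RNA per cell cannot be told apart in such spots.

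Follicles make sex steroids in 2 cell layers. Theca cells outside the basement membrane answer luteinising hormone by turning cholesterol into androgens, and granulosa cells inside it turn these androgens into oestrogens. CYP17A1 is the P450 enzyme that makes androgen precursors from progestogens and is the classical theca marker. INSL3 is a small peptide hormone of the relaxin family, secreted by theca cells and by Leydig cells of the testis, which signals through the receptor RXFP2. SRD5A1 is a steroid 5-alpha-reductase, which turns testosterone into dihydrotestosterone, an androgen that aromatase cannot turn into oestrogen.

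The 8 sections held 4191 spots and between 2777948 and 21619232 UMIs (unique molecules counted), with a median of 8779 to 28120 UMIs per spot. The aged section of each area had the lower median. Area 3 ran against the other areas in oocyte transcripts: spots with at least 10 UMIs of the oocyte list made up 0.923% of young section 3 and 21.0% of aged section 3, against 19.5 to 31.0% of the other young and 0.669 to 4.33% of the other aged sections. An exchange of the sides in area 3 cannot be told apart from a difference between animals, so some results are also given without it.

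Cyp17a1 lies at chr19:46667165-46673172 on the minus strand of mm10 (GENCODE gene ENSMUSG00000003555.8). Insl3 lies at chr8:71689214-71690575 on the plus strand (ENSMUSG00000079019.2) and ends at the same base as the longer gene Jak3, a kinase gene on the same strand. Reads at this shared end could belong to either, so Insl3 counts are uncertain. Jak3 stood at 12.7 ± 3.68 counts per 1000000 (CPM) in the young animals and 12.1 ± 3.05 CPM in the aged ones, and across spots its mean correlation with Insl3 was −0.02. Srd5a1 lies at chr13:69573449-69611442 on the minus strand (ENSMUSG00000021594.11), inside the span of Nsun2 on the plus strand and partly overlapped by Gm17108 on its own strand.

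The RefSeq promoter sequences of Insl3 and Srd5a1 are printed so that the starts of the 2 genes can be read side by side. Both run from 250 bases before to 50 bases after the RefSeq start (GRCm38.p6), Insl3 at chr8:71689002-71689301 on the plus strand and Srd5a1 at chr13:69611414-69611713 on the minus strand. Capitals mark motifs searched on both strands. CAAGGNC is the core of the letters bound by steroidogenic factor 1, the product of Nr5a1. The TATA box was searched as TATAA. The GC box was searched as GGGCGG. The CCAAT box was searched by the letters of its name.
Insl3: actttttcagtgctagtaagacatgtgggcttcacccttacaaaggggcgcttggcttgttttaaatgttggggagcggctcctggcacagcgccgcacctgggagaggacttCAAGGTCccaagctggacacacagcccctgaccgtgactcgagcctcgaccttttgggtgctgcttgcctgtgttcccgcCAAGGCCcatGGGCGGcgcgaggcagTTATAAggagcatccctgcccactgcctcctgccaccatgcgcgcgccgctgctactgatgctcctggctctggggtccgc
Srd5a1: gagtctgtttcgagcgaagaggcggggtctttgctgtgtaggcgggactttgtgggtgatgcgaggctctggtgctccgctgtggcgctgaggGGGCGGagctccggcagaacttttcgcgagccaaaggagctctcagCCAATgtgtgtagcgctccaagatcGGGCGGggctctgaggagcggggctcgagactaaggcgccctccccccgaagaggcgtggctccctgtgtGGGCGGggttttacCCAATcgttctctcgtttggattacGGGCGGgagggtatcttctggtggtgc
Insl3 held the steroidogenic factor 1 letters at −137 and −57 from its start, the GC box at −47, and the TATA box at −31 and −30, which is 1 palindrome read on both strands. Srd5a1 held neither the steroidogenic factor 1 letters nor the TATA box in this window, but 4 GC boxes, at −157, −86, −16 and 24, and the CCAAT box at −111 and −2. Of 32851 RefSeq promoters of the same length, 17.8% held the steroidogenic factor 1 letters, 24.9% the TATA box, 35.7% the GC box and 37.4% the CCAAT box. The letters AGATAA were also searched and were found in neither sequence, against 11.2% of the 32851 promoters. The motifs were chosen after the sequences were seen, and a match is a description, not a site.

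**Figure D1:**
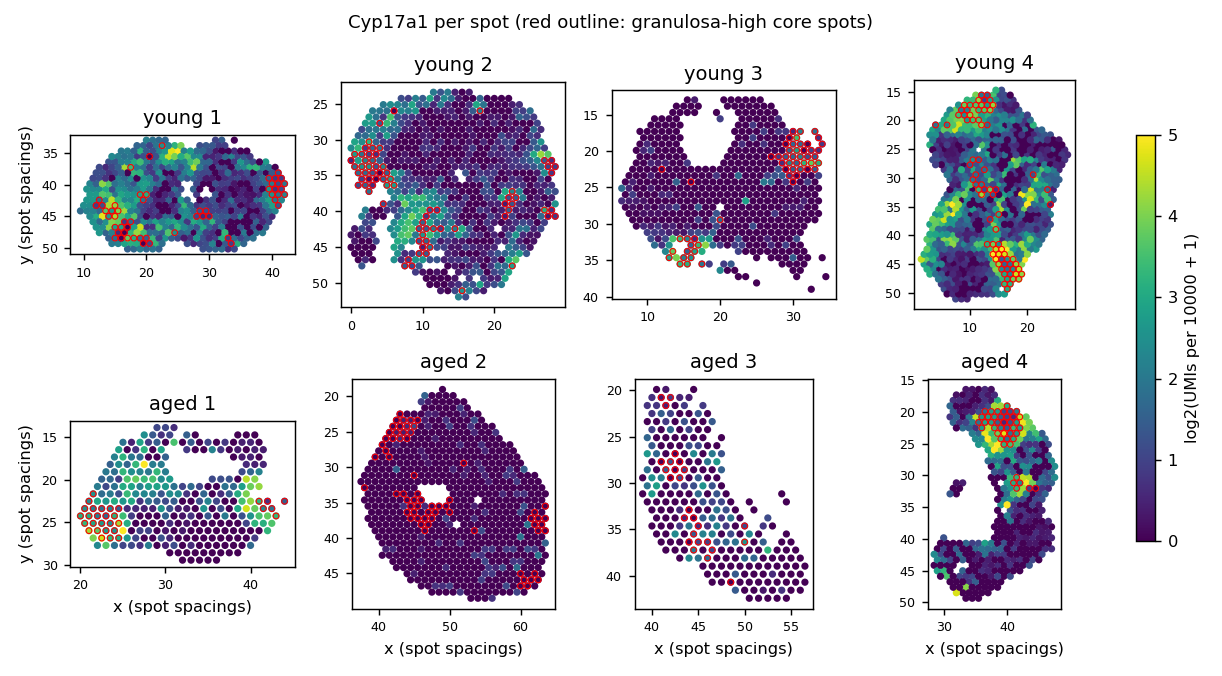
Each point is 1 spot of a section at its array position (both axes in spot spacings), coloured by Cyp17a1 as log2(UMIs per 10000 + 1), with values above 5 shown as 5 and granulosa-high core spots outlined in red. Bright patches lie at and beside the outlined spots in most sections, while aged section 2, at 10.8 CPM, is dark throughout.

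Cyp17a1 varied more between animals than between ages. Its level in whole sections was 271, 135, 75.5 and 414 CPM in young sections 1 to 4 and 316, 10.8, 62.6 and 204 CPM in aged sections 1 to 4. The ages overlapped throughout: young section 4 was the highest and aged section 2 the lowest, with a 38.2-fold range over the 8 sections. Aged section 2 gave 103 Cyp17a1 UMIs, never more than 3 in a spot, whereas single spots reached 146 UMIs in young section 4 and 143 in aged section 1. The means were 224 ± 151 CPM (young) and 148 ± 139 CPM (aged; SD, n = 4 per age). The log2 fold change, aged over young, was −0.60 ± 0.85 (SE), with an adjusted p of 1.00 by edgeR's quasi-likelihood test with Benjamini-Hochberg adjustment. The level was lower in the aged section in 3 of 4 areas, and with capture area as a block the log2 fold change was −1.05, also without a call.

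Insl3 was sparse, and its counts limit what can be said of it. It stood at 12.0, 6.01, 3.09 and 20.7 CPM in young sections 1 to 4, from 136, 130, 30 and 357 UMIs. In aged sections 1 to 4 it stood at 5.92, 0.947, 11.5 and 0.379 CPM, from 30, 9, 32 and 3 UMIs. Young section 4 alone held 49.1% of all Insl3 UMIs, and the ages overlapped, with aged section 3 above 2 of the young sections and aged section 1 above young section 3. The means were 10.4 ± 7.76 and 4.69 ± 5.19 CPM (SD, n = 4 per age). The log2 fold change was −1.38 ± 0.88 (SE; edgeR adjusted p of 1.00), and the aged section was lower in 3 of 4 areas. Without area 3 the means were 12.9 and 2.42 CPM, and the log2 fold change was −2.50 with an adjusted p of 0.446 (edgeR). Area 3 thus sets much of the size of the estimate, though neither estimate passed the threshold.

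Srd5a1 was the most even of the 3 genes across animals. Its level was 51.6, 37.2, 16.7 and 26.7 CPM in young sections 1 to 4 and 26.6, 49.1, 19.8 and 19.6 CPM in aged sections 1 to 4, a 3.09-fold range. Young section 3 was the lowest, and aged section 2, the section with the least Cyp17a1, was the second highest. The means were 33.1 ± 14.9 and 28.8 ± 13.9 CPM (SD, n = 4 per age). The log2 fold change was −0.15 ± 0.45 (SE; edgeR adjusted p of 1.00), and the aged section was lower in 2 of 4 areas. Leaving out young section 1, aged section 3 or aged section 4 turned its sign, to 0.14, 0.03 and 0.01.

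**Figure D2:**
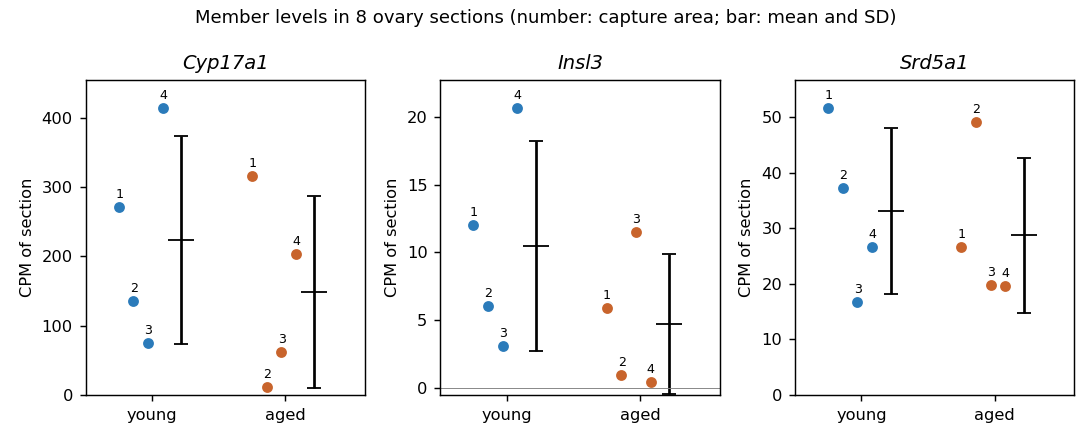
Points give the CPM of Cyp17a1, Insl3 and Srd5a1 in each section by age, numbered by capture area, with the mean and SD of 4 sections beside them. The young and aged points overlap in every panel.

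Of 14044 genes tested between the ages, 0% were called at an adjusted p under 0.05 (392 had an unadjusted p under 0.05, and DESeq2 called 3 higher and 3 lower), so the members' lack of a call was shared by all genes in edgeR. The CPM of the ages did not overlap for 1.38% of genes and for 0 of the 3 members. The same fit called 0 genes in each of 8 lists of the androgen pathway. In the list of cholesterol uptake and side chain cleavage, the median log2 fold change was 0.10 over 10 tested genes, against 0.01 over all genes. The medians of the other lists were 0.13 for the redox partners of P450 enzymes (5 genes), 0.47 for androgen and oestrogen formation (6), 0.18 for steroid reduction (6), −0.01 for the hedgehog pathway (10), 0.12 for receptors (7), −0.08 for transcription factors of steroidogenic cells (12) and 0.22 for the insulin and relaxin family (3). All 16 granulosa markers were higher in the aged sections (median 0.71) and 13 of 15 tested oocyte markers lower (median −0.80), with 0 called. These are directions of the fit, with area 3 included, and single sections differed. Inha stood at 791 CPM in aged section 2 against 1499 CPM in young section 2. Slc18a2 stood at 424 CPM in aged section 3 and at 16.6, 29.6 and 34.9 CPM in aged sections 1, 2 and 4. Of B and plasma cell markers 7 of 8 were higher (median 1.61), and of oviduct epithelium markers 7 of 9 tested were lower (median −1.46), again with 0 called. These markers shifted in both directions in the same comparison, and their part in the values of the members was not tested.

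How often a spot held a member was compared after every spot had been thinned to 5000 UMIs, which left out 110 young and 280 aged spots that were shallower. Cyp17a1 was found in 60.1, 36.2, 15.6 and 57.5% of thinned spots in young sections 1 to 4 and in 50.5, 6.97, 26.2 and 46.7% in aged sections 1 to 4. Before thinning the shares were 87.2, 70.5, 27.5 and 85.8% and 68.2, 14.5, 37.7 and 64.7%. Insl3 was found in 3.65, 3.58, 1.07 and 8.09% of young and in 2.85, 0.377, 5.64 and 0% of aged thinned spots (17.3, 14.8, 4.06 and 24.3% and 7.02, 1.38, 11.3 and 0.721% unthinned). The exact 95% binomial interval of the 0 of 338 spots in aged section 4 reached 1.09%, which covers counting error only. Srd5a1 was found in 23.0, 17.2, 9.42 and 11.7% of young and in 14.9, 21.3, 11.8 and 12.1% of aged thinned spots (54.9, 54.8, 24.5 and 38.1% and 33.4, 38.1, 19.5 and 27.6% unthinned). The orders of these shares were close to those of the CPM: aged section 2 was the lowest for Cyp17a1, and aged section 4 for Insl3.

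The mean shares of thinned spots were 42.4 ± 20.8% in young and 32.6 ± 20.2% in aged sections for Cyp17a1, 4.10 ± 2.92% and 2.22 ± 2.61% for Insl3, and 15.3 ± 6.08% and 15.0 ± 4.40% for Srd5a1 (SD, n = 4 per age). None of 6 measures, these shares and the share of a gene's UMIs in its richest 10% of spots, passed a two-sided exact permutation test, with adjusted p from 0.429 to 1.00. With 4 sections per age the smallest unadjusted p such a test allows is 0.0286. A single measure at that value could not pass after adjustment over the 6 measures, so the lack of a pass does not show equal shares. In the 5% of spots richest in oviduct epithelium genes, a set meant to lack theca, Cyp17a1 was found in 34.4% of thinned spots, against 38.7% of the others. The shares there were 2.69 against 3.49% for Insl3 and 12.9 against 15.8% for Srd5a1, with median depths of 17142 and 19440 UMIs. In several sections oviduct genes were near 0 (Foxj1, a gene of ciliated cells, stood at 0 CPM in young section 1 and aged section 1), so that these spots need not be oviduct there, and the set gives no clean background. A UMI in a spot is not read as expression in that spot, and spots with and without a UMI of 1 gene are used below to compare the level of another, with the counts of shared spots as a description.

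Where the members lay was compared with follicles through 3 zones. The core was the 10% of spots of each section with the highest share of granulosa markers (419 spots), the ring was the 584 spots next to a core spot, and the rest was the other 3188 spots. No member is on the granulosa list. In the ring, which theca would occupy around a follicle, Cyp17a1 stood at 460, 312, 269 and 751 CPM in young sections 1 to 4 and at 752, 12.2, 74.1 and 1013 CPM in aged sections 1 to 4. In the rest it stood at 215, 89.9, 17.6 and 289 CPM in the young and at 182, 10.3, 54.6 and 96.6 CPM in the aged sections. The ring was the higher in 8 of 8 sections, by little in aged sections 2 and 3 and by most in young section 3 and aged section 4.

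The means for Cyp17a1 were 455 ± 355 CPM in the ring, 416 ± 347 CPM in the core and 119 ± 99.8 CPM in the rest (SD, n = 8). The means of ring and core lay close against their spread between sections, and ring against core within sections was not tested. Ring over rest, the log2 fold change was 1.88 ± 0.28 (SE), with an adjusted p of 0.000284 by edgeR's quasi-likelihood test with sections as a block. Without area 3 it was 1.73 (adjusted p of 0.000352 by the same test). Core over rest, it was 1.72 ± 0.32 (edgeR adjusted p of 0.000702), with the core higher in 8 of 8 sections. In this comparison 6.15% of 11702 genes were called higher in the ring, 6.76% called lower in it, and 21.6% of 11156 genes were called higher in the core. Granulosa genes, which formed the zones, were also higher in the ring, 12 of 14 tested being called, so the ring is not free of granulosa signal. The part of that signal in the Cyp17a1 result was not tested.

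Insl3 in the ring stood at 13.0, 10.8, 5.39 and 24.3 CPM in young sections 1 to 4 and at 7.49, 0.935, 19.2 and 0 CPM in aged sections 1 to 4. In the rest it stood at 12.0, 5.35, 2.94 and 20.7 CPM in the young and at 2.58, 0.527, 9.20 and 0.305 CPM in the aged sections. The ring was the higher in 7 of 8 sections, the exception being aged section 4 with its 3 UMIs. The log2 fold change was 0.57 ± 0.21 (SE; edgeR adjusted p of 0.0855), which did not pass. With a core of 20% of spots it was 1.11 and passed (edgeR adjusted p of 0.0125). In the core Insl3 was higher than in the rest in 3 of 8 sections (0.33 ± 0.41, edgeR adjusted p of 0.545), and without aged section 1 this value turned to −0.12.

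Srd5a1 showed no such arrangement. Its mean was 37.5 ± 16.2 CPM in the ring, 31.2 ± 15.3 CPM in the rest and 23.4 ± 6.10 CPM in the core (SD, n = 8). The spreads of neighbours in this order overlapped between sections, and the fits that follow compare zones within sections. Ring over rest, the log2 fold change was 0.15 ± 0.13 (SE; edgeR adjusted p of 0.516), with the ring higher in 6 of 8 sections. Core over rest, it was −0.48 ± 0.22 (edgeR adjusted p of 0.0942), with the core lower in 5 of 8 sections. This value depended on the size of the core: it was −0.99 and called with a core of 5% of spots (edgeR adjusted p of 0.00372) and 0.04 with a core of 20%. It was also called without aged section 4 (−0.64, edgeR adjusted p of 0.0262) and without the filter on low counts (−0.53, edgeR adjusted p of 0.0461).

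**Figure D3:**
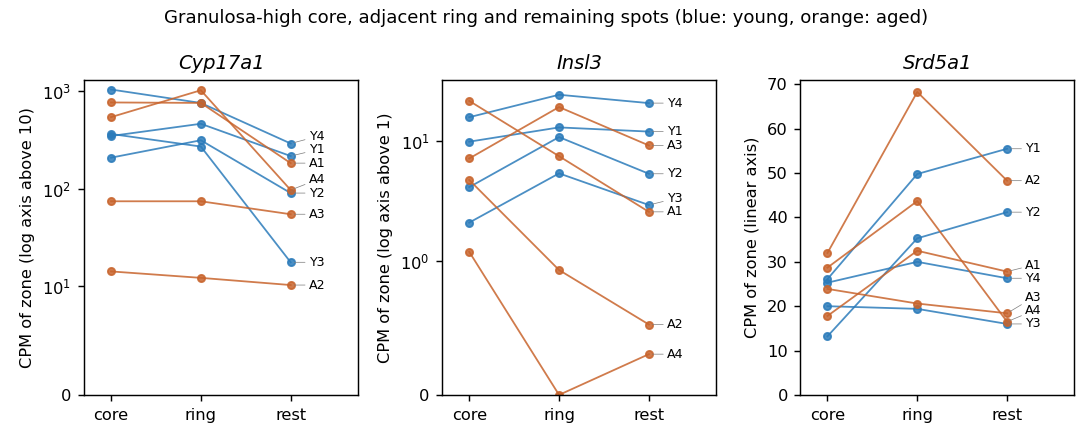
Lines join the CPM of each section (blue young, orange aged) in the core, the ring and the rest. Cyp17a1 falls from ring to rest in 8 of 8 sections, Insl3 in 7 of 8 and Srd5a1 in 6 of 8.

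Counted by molecules, 22.7% of Cyp17a1 UMIs lay in the core, 26.8% in the ring and 50.5% in the rest, although the rest made up 76.1% of spots and 76.7% of all UMIs. For Insl3 the shares were 10.0, 18.6 and 71.4%, and for Srd5a1 6.90, 14.8 and 78.3%. Many Cyp17a1 molecules were thus outside the core and the ring. The core is a fixed 10% of the spots of each section, so the rest can still hold follicle tissue. The rest held nearly the same share of Srd5a1 UMIs as of all UMIs, while the core, with 10.5% of all UMIs, held less.

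The rim of the section, spots with fewer than 6 neighbours over tissue, was compared with the interior as a position that uses no expression. None of the members was among the 3.35% of 12119 genes called. The log2 fold changes, rim over interior, were 0.17 ± 0.24 for Cyp17a1, 0.26 ± 0.21 for Insl3 and −0.26 ± 0.11 for Srd5a1 (SE). Without the filter Srd5a1 was called (−0.31, edgeR adjusted p of 0.0229), and without young section 3 Cyp17a1 turned to −0.12. Whether the ring difference itself changed with age was tested by an interaction, in which 0% of 11702 genes were called. The interaction was 0.01 ± 0.57 for Cyp17a1, 0.76 ± 0.51 for Insl3 and 0.62 ± 0.23 for Srd5a1 (log2, SE; edgeR adjusted p of 1.00 each). The sign for Cyp17a1 turned without any 1 of young sections 1, 2 and 4 and aged sections 1 and 4 (−0.61 to −0.01).

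The steps before CYP17A1 ran the other way in the ring and in the core, so this is not particular to the ring. In the core, all 10 tested genes of cholesterol uptake and side chain cleavage were lower than in the rest. There 9 were called (median −1.17), and ring against core was not tested. In the ring, 10 of 10 were lower and 6 were called (median −0.43, against 0.01 over all genes). These were Star, which carries cholesterol into mitochondria (−0.92 ± 0.12), Scarb1, the receptor for high-density lipoprotein (−0.76 ± 0.12), Cyp11a1, the side chain cleavage enzyme (−0.69 ± 0.13), Fdx1 and Fdxr, its electron donors (−0.52 ± 0.12 and −0.39 ± 0.11), and Tspo, a protein of the outer mitochondrial membrane (−0.48 ± 0.10). In the same spots 8 of 11 corpus luteum markers were called lower, a list that shares Star, Scarb1, Cyp11a1 and Hsd3b1 with the first. The part of luteal tissue in these values was not tested. Of 5 redox partners of P450 enzymes, Cyb5a, the cytochrome that favours the androgen-forming step of CYP17A1, was called higher (0.43 ± 0.11) and the others did not pass.

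Past the CYP17A1 step the lists were mixed. Of 5 tested genes of androgen and oestrogen formation (median −0.02), Hsd17b1, a granulosa enzyme that makes oestradiol, was called higher (0.94 ± 0.19) and Hsd17b7, a luteal enzyme, lower (−0.80 ± 0.21). Hsd17b1 is on the granulosa list that formed the zones, so its call is not read as a result, and the median includes it. Of 6 tested genes of steroid reduction (median 0.11), Akr1c18, which breaks down progesterone, was called lower (−1.32 ± 0.24). Akr1c14, the 3-alpha reductase that acts after SRD5A1, had a log2 fold change of 0.37 and an edgeR adjusted p of 0.0609. The related Srd5a3 stood at 24.2 ± 2.20 CPM (young) and 23.6 ± 2.49 CPM (aged; SD, n = 4 per age), while Srd5a2 gave 130 UMIs and Hsd17b3, the testicular enzyme of testosterone formation, 11 UMIs in all sections.

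Transcripts of the hedgehog pathway, by which granulosa cells recruit and maintain theca cells, were mostly higher in the ring and in the core than in the rest. Of 10 tested genes, 10 were higher and 6 were called (median 0.82), among them the ligands Ihh (1.88 ± 0.20) and Dhh (1.23 ± 0.20), the receptor Ptch1 (0.70 ± 0.10), the transcription factor Gli1 (1.19 ± 0.13) and the inhibitor Hhip (2.12 ± 0.23). In the core 6 of 8 tested genes were called higher (median 0.79), among them Ihh (3.55 ± 0.24), Dhh (2.66 ± 0.25) and Ptch1 (0.79 ± 0.12), and Hhip stood at 13.2 ± 6.05 CPM there, at 10.6 ± 3.90 CPM in the ring and at 2.19 ± 1.00 CPM in the rest (SD, n = 8). Of 12 transcription factors of steroidogenic cells (median 0.32), 5 were called higher, among them Gata4 (0.57 ± 0.13), Nr5a2 (0.49), Nr2f2, a factor of theca and stroma (0.37 ± 0.09), and Foxl2 (0.27). Nr5a2 and Foxl2 are also on the granulosa list that formed the zones, so their calls are not read as results. The count of 5 and the median of 0.32 include both. Nr4a1 was called lower (−0.59 ± 0.10). Of 7 tested receptors (median 0.02), Esr2, the oestrogen receptor of granulosa cells, was called higher (1.58 ± 0.16) and Prlr, the prolactin receptor, lower (−0.74 ± 0.10). Lhcgr, the receptor of luteinising hormone, had a log2 fold change of −0.14 and did not pass. The insulin and relaxin family had 2 tested genes and 0 called. Rxfp2, the receptor of INSL3, gave 3 UMIs in 2 spots over all sections.

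Of the 9 theca markers other than the members, Ptch1 and Nr2f2 were called higher in the ring, and Star, Cyp11a1 and Fdx1 lower. Of stromal fibroblast markers 5 of 9 tested, and of smooth muscle markers 4 of 10, were called higher. Of the 3 genes called theca genes here, Cyp17a1 thus passed in the ring, and with a core of 10% of spots neither Insl3 nor Srd5a1 did. Cyp17a1 passed in the core as well, and ring against core was not tested, so its place is not narrowed to the ring.

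**Figure D4:**
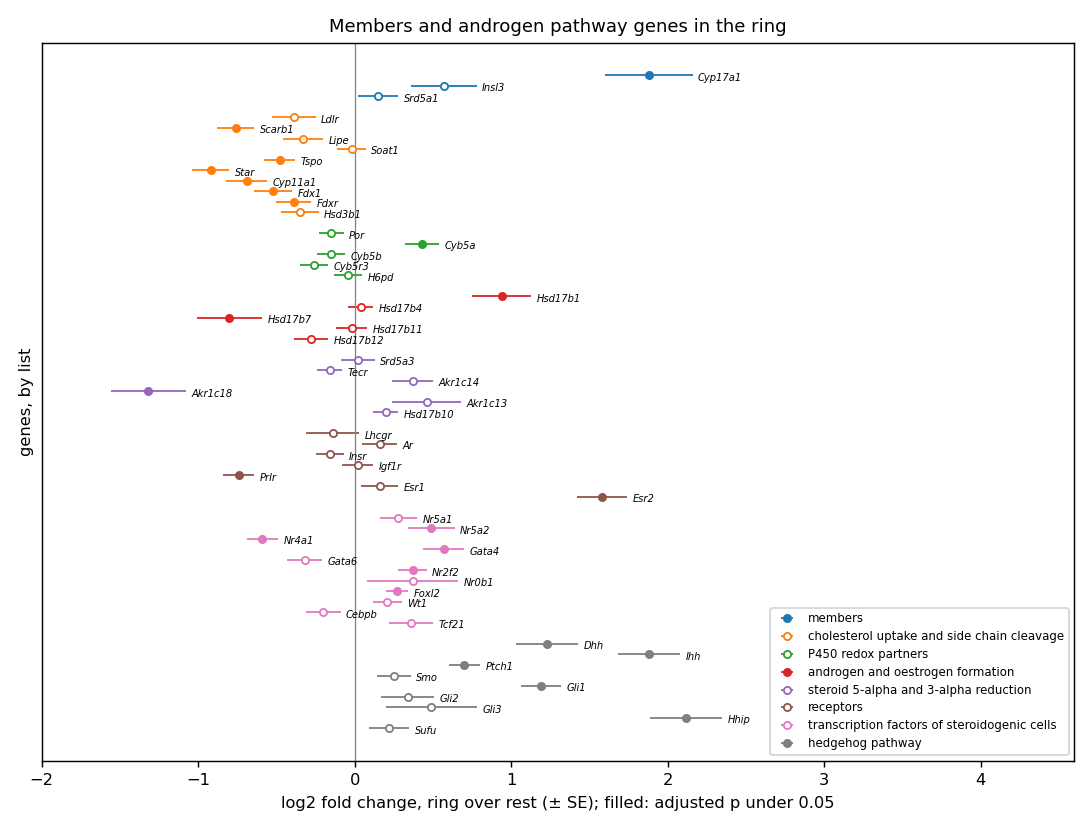
Points give the log2 fold change of members and pathway genes, ring over rest, with the SE of the fit as bars, in groups by list (filled at an adjusted p under 0.05). Cyp17a1 (1.88) and the hedgehog genes shown lie to the right of 0, and the genes of cholesterol uptake and side chain cleavage to the left.

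The level of Cyp17a1 was higher in spots with Insl3 than in spots without, although most spots with Cyp17a1 lacked Insl3. Of 131 thinned spots with Insl3, 95 (72.5%) held Cyp17a1, and these were 6.49% of the 1464 spots with Cyp17a1. Young section 4, where Cyp17a1 is common, gave 60 of the 131 spots, so the pooled share is not set against a pooled background. Within sections, Cyp17a1 was in 84.2, 53.8 and 83.3% of the spots with Insl3 in young sections 1, 2 and 4, in 3 of 5 in young section 3, and in 87.5, 0 and 45.5% in aged sections 1 to 3. These shares lie above those of all thinned spots in 6 of 7 sections, the exception being aged section 2 with 2 such spots. In spots with Insl3, Cyp17a1 stood at 605, 330, 428 and 871 CPM in young sections 1 to 4 and at 886, 36.7 and 101 CPM in aged sections 1 to 3. In spots without it, Cyp17a1 stood at 259, 128, 73.7 and 378 CPM in the young and at 294, 10.9 and 57.5 CPM in the aged sections. Spots with Insl3 were the higher in 7 of 7 sections, aged section 4 having no such spot. The value of aged section 2 rests on 2 UMIs. The mean log2 ratio was 1.50 ± 0.55 (SD, n = 7; two-sided exact sign-flip permutation test, adjusted p of 0.0469 over 6 ratios). This call was lost with thinning to 2000 UMIs (0.71, adjusted p of 0.312 by the exact test). With fewer sections the smallest unadjusted p that the exact test allows rises, to 0.0312 without 1 section and to 0.0625 without area 3, so those losses say nothing on stability. The ratio itself was 1.32 to 1.61 without any 1 section and 1.43 without area 3.

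Read the other way, Insl3 stood at 17.1, 10.5, 8.44 and 32.2 CPM in spots with Cyp17a1 of young sections 1 to 4, against 5.73, 3.71, 2.14 and 6.90 CPM in spots without. In aged sections 1 to 4 it stood at 10.7, 1.78, 17.9 and 0 CPM against 1.56, 0.929, 9.27 and 0.607 CPM. Insl3 was the higher in 7 of 8 sections, the exception again being aged section 4. The mean log2 ratio of 1.14 ± 1.59 (SD, n = 8) did not pass (exact adjusted p of 0.152), and without aged section 4 it was 1.66 and passed (exact adjusted p of 0.0469).

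The level of Cyp17a1 was also higher in spots with Srd5a1, and whether this ratio differs from that in spots with Insl3 was not tested. Cyp17a1 stood at 396, 115, 169 and 586 CPM in spots with Srd5a1 of young sections 1 to 4, against 240, 139, 69.0 and 395 CPM in spots without. In aged sections 1 to 4 it stood at 547, 15.8, 150 and 353 CPM against 280, 9.76, 48.9 and 183 CPM. The exception to the direction was young section 2. The mean log2 ratio was 0.81 ± 0.56 (SD, n = 8; exact sign-flip adjusted p of 0.0469), higher in 7 of 8 sections. This call was lost with thinning to 2000 UMIs (0.16, exact adjusted p of 0.781). It was also lost without area 3 (0.60, exact adjusted p of 0.188) and without any 1 of the 8 sections (0.70 to 0.97). Here too the smallest p that the exact test allows rises with fewer sections, so the losses from leaving out sections say little on stability. The reverse, Srd5a1 in spots with Cyp17a1, had a mean log2 ratio of 0.55 ± 0.52 (SD, n = 8; exact adjusted p of 0.0625). Of 595 spots with Srd5a1, 252 (42.4%) held Cyp17a1, which were 17.2% of the spots with Cyp17a1. Within sections, the share of spots with Srd5a1 that held Cyp17a1 lay above that of all thinned spots in 7 of 8, again except young section 2.

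Insl3 and Srd5a1 were not found to go together. They shared 23 spots, 17.6% of those with Insl3 and 3.87% of those with Srd5a1. The mean log2 ratio was −0.08 ± 1.05 for Insl3 in spots with Srd5a1 (SD, n = 8; exact adjusted p of 0.852) and −0.09 ± 0.75 for Srd5a1 in spots with Insl3 (SD, n = 7; exact adjusted p of 0.852). Insl3 was the higher in 6 of 8 sections, and Srd5a1 in 4 of 7. The lowest ratios for Insl3 were −2.10 in aged section 4 (0 against 3 UMIs) and −1.29 in young section 3 (1 against 29 UMIs). Such small counts pull the mean down, so a weak relation and none cannot be told apart. Across whole sections, none of the 3 pairs passed an exact permutation test over the 8 sections, on levels taken as log2 CPM. Pearson's r of log2 CPM was 0.44 for Cyp17a1 and Insl3, −0.18 for Cyp17a1 and Srd5a1 and 0.12 for Insl3 and Srd5a1 (adjusted permutation p of 0.784 each). Spearman's rho was 0.48, 0.10 and 0.40 (adjusted permutation p of 0.491, 0.840 and 0.491). Without the 2 sections farthest from the median log2 CPM of the first gene, r was 0.40, 0.40 and 0.36.

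A few spots carried much of the Cyp17a1 signal. Spots with at least 50 UMIs of it, 41 in number from 5 sections, were 0.978% of spots and held 17.9% of its UMIs, and the 461 spots with 10 to 49 UMIs held a further 49.3%. With counts pooled over sections, Insl3 stood at 2.14, 3.48, 9.27, 21.7 and 70.4 CPM in spots with 0, 1, 2 to 9, 10 to 49 and 50 or more Cyp17a1 UMIs. Srd5a1 stood at 29.7, 32.6, 34.7, 38.3 and 36.2 CPM in the same order. Insl3 was higher in each class than in the one before, Srd5a1 stayed between 29.7 and 38.3 CPM, and Star stood at 4591 CPM in the first class and 845 CPM in the last. These are descriptions: the richest classes come mostly from young sections (35 of 41 spots) and from deeper spots (median of 35088 UMIs against 13648 with no Cyp17a1 UMI).

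Over the spots of a section, Cyp17a1 formed patches. Its level in a spot, as log2(UMIs per 10000 + 1), correlated with the mean of the adjacent spots at a Pearson r of 0.62 on average over the 8 sections (0.10 to 0.78). For Insl3 and Srd5a1 this value was 0.21 and 0.23. Spots of a section share an animal and a library, and adjacent spots share tissue, so these are descriptions. Between members the mean r was 0.18 for Cyp17a1 and Insl3 (−0.02 to 0.33), 0.10 for Cyp17a1 and Srd5a1 (−0.05 to 0.24) and 0.00 for Insl3 and Srd5a1 (−0.04 to 0.07). With the summed granulosa markers, Cyp17a1 had a mean r of 0.44, with stromal fibroblast markers 0.22, with smooth muscle markers 0.21, with the hedgehog list 0.28 and with corpus luteum markers −0.24. With the theca markers other than the members it was −0.10, a sum in which Cyp11a1, Hsd3b1, Fdx1 and Star are the most abundant.

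Among the 10 genes most like Cyp17a1 across spots, by mean Pearson r over the 8 sections among 12390 genes found in at least 5% of spots, were Inha (0.46), Fabp3 (0.36), Prkar2b (0.36), Trib2 (0.35), Gas6 (0.34), Smoc2 (0.34), Obsl1 (0.33), Acsbg1 (0.33) and Defb19 (0.31), where the median gene had 0.02. Inha encodes the alpha subunit of inhibin, Prkar2b a regulatory subunit of the cyclic AMP-dependent kinase and Gas6 a ligand of receptor tyrosine kinases. For Insl3 the first was Cyp17a1 itself (0.18), and among the others of its first 5 were Rack1, Fabp3 and Defb19 (0.11 each). Of these, Fabp3 and Defb19 are also among the 10 of Cyp17a1. Correlations this low in sparse counts are no finding of their own. For Srd5a1 they were Mgarp (0.31), Adh1 (0.29), Gstm1 (0.28), Dnajc15 (0.28) and Aldh1a1 (0.27), none of which is among those of the other members. Mgarp and Aldh1a1 are on the theca marker list. With the sum of that list without the members, Srd5a1 had a mean r of only 0.05 (−0.11 to 0.18). Adh1 and Aldh1a1 encode enzymes of retinol and retinal oxidation, and Gstm1 a glutathione transferase.

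Around oocytes the members showed no difference that passed. Oocyte spots, with at least 10 UMIs of the oocyte list, were compared with spots that neither were nor touched one, in the 7 sections that held at least 5. Cyp17a1 stood at 262 against 186 CPM in young section 1, 199 against 73.9 CPM in young section 2, 233 against 483 CPM in young section 4 and 79.7 against 47.8 CPM in aged section 3. In young section 3 it stood at 76.6 against 77.4 CPM, in aged section 4 at 35.6 against 228 CPM, and in aged section 2 at 0 against 10.9 CPM. The direction differed between sections, and the exact sign-flip adjusted p was 0.586. Insl3 stood at 13.7 against 7.40 CPM, 7.90 against 3.56 CPM, 17.8 against 19.0 CPM and 19.7 against 6.38 CPM in the same 4 sections. The other 3 sections held 0 Insl3 UMIs in their oocyte spots, so that their ratios are set by the count added (exact adjusted p of 0.586 over all 7). Srd5a1 was lower in oocyte spots in 6 of 7 sections (mean log2 ratio −0.91 ± 1.44, SD, n = 7; exact adjusted p of 0.469), the exception being aged section 3. Spots next to an oocyte spot gave mean log2 ratios of 0.24 for Cyp17a1, −1.02 for Insl3 and 0.04 for Srd5a1 (exact adjusted p of 0.586 to 0.859). With 7 sections the smallest unadjusted p that the exact test allows is 0.0156. A single ratio at that value cannot pass after adjustment over 6 ratios, so the lack of a pass does not show equal levels. With a minimum of 5 oocyte UMIs the Insl3 ratio beside oocyte spots was 1.87 and passed (exact adjusted p of 0.0469), so its direction rests on the threshold and on sections with 0 Insl3 UMIs.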

How the data were processed

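As deposited by the authors, each Visium capture area has a table of whole-number counts (UMIs by gene and spot), and position files give each spot's place on the array. Space Ranger 1.2.1 and build mm10 are named per the submitters' processing notes. Which annotation was counted, and whether strand was used, is not given in the sources used here. Of 4263 spots over tissue, 72 without a column were not used. Spots were assigned to the young or aged section by the sides in the labels, splitting positions at the widest gap.

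Counts were summed per section, or per section and zone, and fitted across all genes with edgeR 4.0.16 (R 4.3.3; quasi-likelihood, TMM, filterByExpr, Benjamini-Hochberg threshold of 0.05), after tests on simulated data. CPM use total counts without TMM. Ratios between sets of spots add 0.5 UMIs, shared in proportion to depth, a choice made after adding 0.5 to each sum alike was seen to favour small sets. Capture area pairs sections: correlations of paired deviations were 0.00358, 0.165, −0.224 and 0.208. Thinning left 3801 of 4191 spots. The members and lists were chosen with earlier results of these data known. Named genes are the members, list genes past the test or with the largest changes, and the 10 (Cyp17a1) or 5 genes of highest mean r. Some of these genes are not reported here. The alternatives covered scaling, filters, DESeq2, zone sizes, thinning and left-out sections.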

Additional observations from a re-analysis of the deposited data

Results flagged for a closer look

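The share of Insl3 UMIs in the richest 10% of spots was 100% in young section 3, against 71.3, 73.1 and 69.2% in the other young sections. In aged section 3 it was 90.6%, against 100% in each other aged section. The share is 100% wherever fewer than 10% of spots hold the gene. In aged section 4 the log2 ratio of Insl3 between spots with and without Cyp17a1 was −2.51, against 0.86 to 2.63 in the other 7 sections, but it compares 0 with 3 UMIs. In the same section the log2 ratio of Srd5a1 between oocyte spots and distant spots was −3.93, against −0.85 to 0.74 elsewhere, and rests on 1 UMI in 18 oocyte spots. Each was flagged because 1 section stood far from the others of its group. Of 30 such groups tested, chance flags about 1 in 20.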

How the results depend on the processing

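The call of Cyp17a1 in the ring and in the core held in every alternative run. With capture area as a replicate block the age changes were −1.05 (Cyp17a1), −1.64 (Insl3) and −0.17 (Srd5a1), the blocked fit called 0 genes higher and 0 lower, and the block changed no call. DESeq2 called 3 genes higher and 3 lower with age, where edgeR called 0. The counts of genes higher and lower in the ring (720 and 791) became 1127 and 1224 with a core of 5%, 350 and 350 with a core of 20%, and 454 and 423 with a ring of 2 spacings. Those of the rim (245 and 161) became 754 and 932 without a filter, with 359 lower without area 3. Without area 3, 1 gene was called lower in the age by zone test. In the ring, Srd5a1 turned to −0.14 with a core of 5%, and Insl3 rose to 1.11 with a core of 20%. In the core, Srd5a1 was −0.53 without a filter, −0.99 with a core of 5% and 0.04 with a core of 20%. At the rim, Srd5a1 was −0.31 without a filter and Cyp17a1 −0.09 without area 3.

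Thinning to 2000 UMIs gave 0.71 for Cyp17a1 with Insl3 and 0.16 for Cyp17a1 with Srd5a1. Without area 3 these were 1.43 and 0.60, and Insl3 with Srd5a1 was 0.04. Leaving out area 3 was, in most comparisons, chosen after seeing the data. So was the reported addition of 0.5 UMIs in proportion to depth, and with the earlier 0.5 UMIs added to each sum alike Insl3 with Srd5a1 was 0.38, Srd5a1 with Insl3 0.10, Insl3 in oocyte spots 0.83 and in their neighbours 0.40. With at least 5 oocyte UMIs, Cyp17a1 in oocyte spots was 0.40, Insl3 1.73, and in neighbours Insl3 was 1.87 (called, exact adjusted p of 0.0469) and Srd5a1 −0.14. With at least 20, these were 0.26, 0.28, 0.79 and −0.08. Srd5a1 in neighbours was −0.10 without area 3. The cause was not tested.

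Leaving out 1 section at a time gave these ranges. The age change was −0.64 to 0.14 for Srd5a1. In the core it was −0.12 to 0.47 for Insl3 (6 values, since it failed the filter in the others) and −0.64 to −0.27 for Srd5a1. At the rim it was −0.12 to 0.30 for Cyp17a1, with 132 to 443 genes higher and 27 to 463 lower. Age by zone was −0.61 to 0.50 for Cyp17a1. The age difference was −2.21 to 12.5 points in the share of Cyp17a1 UMIs in the richest spots and −2.39 to 2.25 points in spots with Srd5a1. The ratios were 1.32 to 1.61 (Cyp17a1 with Insl3), 0.70 to 0.97 (Cyp17a1 with Srd5a1), 0.92 to 1.66 (Insl3 with Cyp17a1), −0.21 to 0.21 (Insl3 with Srd5a1), −0.25 to 0.13 (Srd5a1 with Insl3) and −0.12 to 0.14 (Srd5a1 in neighbours of oocyte spots). Few UMIs limit Insl3, with 74 in all aged sections.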
